A study of Mus musculus with 9 samples.

Results

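The matrix metalloproteinases (MMPs), the ADAM and ADAMTS proteases, the ADAMTS-like proteins and the tissue inhibitors of metalloproteinases (TIMPs) were followed in RNA from cells sorted as eosinophils from mouse lung. Members were taken by gene symbol, which gave 84 of the 54449 genes measured: 23 MMPs, 4 TIMPs, 19 ADAMTS, 5 ADAMTS-like and 33 ADAM genes. All mice were C57BL/6. The naive group (3 libraries) received saline through the tail vein. The other groups received PyMT tumour cells, a mouse mammary tumour line, in 200 µl of saline and carried experimental lung metastases. Cells from these lungs were divided into a Siglec-F high group (3 libraries, titled iEOS) and a Siglec-F int group (3 libraries, titled rEOS), Siglec-F being a surface lectin of eosinophils and alveolar macrophages. Each library pooled cells from 3 to 4 mice, so that n counts pools. The labels do not give the promoter or the clonal origin of the tumour line.

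MMPs are zinc-dependent endopeptidases that cut collagens, elastin, gelatin and other matrix proteins, and most are made as inactive proforms. TIMPs bind their active sites, and their balance with the proteases sets how fast matrix is turned over in lung repair, fibrosis and tumour growth. ADAMTS proteases are secreted and trim proteoglycans and procollagens. ADAMTS-like proteins share their outer domains but lack the protease, and membrane-bound ADAMs release growth factors, cytokines and receptors from the cell surface.

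The libraries held 2205949 to 12495639 reads and 15002 to 20052 genes above 0. Of 16 eosinophil markers, Ccr3, Prg3 and Cebpe were at 0 in all naive libraries, while others were present there, such as Ear2 (144 to 469 normalized counts), Ear1 (30.9 to 162), Alox15 (18.2 to 65.4) and Gata2 (79.1 to 188). Ear1 and Ear2 were also on the alveolar macrophage list used here. The 16 summed to 712 to 1316 in naive, 4476 to 9437 in Siglec-F high and 4757 to 5109 in Siglec-F int. Of 10 tested as described below, 3 were called higher and 0 lower in each comparison with naive, beside 14.7% and 12.0% of all genes higher. The median log2 fold change of these 10 was 1.155 in Siglec-F high and 0.0005 in Siglec-F int. The eosinophil list thus did not rise as a whole in Siglec-F int, although its sum did. In the libraries from mice with tumour cells Ccr3 was at 0 to 24.1, with 0 in 1 library of each group, and Cebpe at 0 to 1.79. Siglecf RNA was at 4.18 to 31.3 normalized counts in naive, 3.58 to 17.6 in Siglec-F high and 6.98 to 20.2 in Siglec-F int, so these ranges overlapped. A list of 15 pigment cell markers summed to 66316 to 74630 normalized counts in the naive libraries and to 325 to 1224 in the libraries from mice with tumour cells. The 12 alveolar macrophage markers summed to 4245 to 6364 in naive and 9604 to 10954 in Siglec-F high. In Siglec-F int they summed to 6267 to 7892. Sums of other cell type lists are given below. Whether the libraries of any group, naive included, hold mainly RNA of the cells their labels name could not be settled from these values. Groups are therefore called by their labels, with no cell type assumed, and a difference from naive is one from the libraries labelled naive. Library 1 of the Siglec-F high group and library 2 of the Siglec-F int group stood apart from the others of their groups, and calls that turn on them are given with and without them.

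A cluster of 10 MMP genes lay on chromosome 9 (GRCm38, chr9:7272514-7699585). The proximal promoters of many of these genes are textbook examples of AP-1 control, AP-1 being the Jun/Fos transcription factor. The motif TGANTCA (N is any base, and the motif is its own reverse complement) was therefore searched in the 250 bases before each RefSeq start site of GRCm38.p6. It was present in 8 of the 10 cluster genes, the exceptions being Mmp8 and Mmp27. Among members with a promoter in the table it was present in 12 of 53 genes (22.6%), beside 7.82% of the 27025 genes in the table. Of these 12, 8 were the neighbouring genes of the cluster, and the others were Adam19, Adam20, Adam25 and Adam29. The share thus came mostly from the cluster. Members without a promoter there, such as Mmp2 and Mmp9, were not searched. Windows of 100 bases that end just before the start site follow for 6 cluster genes, 5 with reads and Mmp1a without, 5′ to 3′, with the motif in capitals. Mmp10 (chr9:7502242-7502341), Mmp12 at its downstream start (chr9:7347274-7347373), Mmp3 (chr9:7445722-7445821), Mmp13 (chr9:7272414-7272513), Mmp1a (chr9:7464041-7464140) and Mmp8 (chr9:7558329-7558428) are all on the plus strand.
Mmp10: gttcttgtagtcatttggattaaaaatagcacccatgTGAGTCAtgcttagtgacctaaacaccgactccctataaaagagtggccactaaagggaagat
Mmp12: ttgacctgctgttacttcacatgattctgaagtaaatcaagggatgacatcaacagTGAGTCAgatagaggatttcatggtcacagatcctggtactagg
Mmp3: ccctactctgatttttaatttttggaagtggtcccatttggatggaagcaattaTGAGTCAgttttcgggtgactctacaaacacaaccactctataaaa
Mmp13: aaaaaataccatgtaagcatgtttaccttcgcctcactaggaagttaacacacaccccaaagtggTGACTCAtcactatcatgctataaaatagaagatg
Mmp1a: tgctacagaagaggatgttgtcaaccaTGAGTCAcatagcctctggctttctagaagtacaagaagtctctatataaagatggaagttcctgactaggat
Mmp8: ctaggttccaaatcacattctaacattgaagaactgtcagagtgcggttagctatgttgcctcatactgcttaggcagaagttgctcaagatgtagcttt

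The motif began 63 bases before the start of Mmp10, 44 before that of Mmp12, 46 before that of Mmp3, 35 before that of Mmp13 and 73 before that of Mmp1a. The other RefSeq start of Mmp12, further upstream (window chr9:7344147-7344396), had no match. A match to these letters is a description of the sequence and does not show that the factor binds there. Expression differed between genes that carry the motif. Mmp10, Mmp12, Mmp3 and Mmp13 were measured above the filter on low values, while Mmp1a, Mmp1b and Mmp7 had the motif and 0 reads in every library.

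Against the naive libraries, more protease and inhibitor genes were higher than lower. Genes with a mean of at least 5 normalized counts over the 9 libraries were tested, which kept 46 of the 84 members. In Siglec-F high, 15 of these 46 were higher than in naive and 1, Adam12, was lower (limma, Benjamini-Hochberg adjusted p under 0.05). The higher calls made up 32.6% of the members tested, beside 14.7% of all 13642 genes tested, and the lower call 2.17% beside 16.6%. Mmp10 and Mmp17, counted here and among the members without overlap given below, reached the filter only through Siglec-F high. With the filter at a mean of 20 neither was tested. At that filter 14 members were called higher and 1 lower in Siglec-F high, beside 1888 and 2137 of all genes. In Siglec-F int, 15 of 46 were higher (32.6%, beside 12.0% of all genes) and Adam12 was again the lower one (2.17%, beside 10.3%). Calls in either direction thus made up 34.8% of the members tested in each comparison, beside 31.3% of all genes in Siglec-F high and 22.3% in Siglec-F int, so that in Siglec-F high the share called was near the background. Groups did not overlap naive for 18 members higher and 6 lower in Siglec-F high (39.1% and 13% of those tested, beside 20.2% and 26.3% of all genes). In Siglec-F int this held for 22 higher and 6 lower (47.8% and 13%, beside 23.3% and 27.6%). As shares of all 84 members, the higher calls were 17.9% in each comparison. The 2 comparisons share the naive libraries and are not independent of each other. The median log2 fold change of the tested members was 1.07 in Siglec-F high and 1.25 in Siglec-F int, and that of all tested genes was -0.11 and -0.02. Another scaling shifted the all-gene median in Siglec-F int to 0.17 (TMM) or 0.23 (equal totals), and members are to be read against that shift. With equal totals, the calls over all genes in Siglec-F int split into 2009 higher and 898 lower in place of 1634 and 1402, and in Siglec-F high into 2141 and 1614 in place of 1999 and 2267. Under TMM they split into 1990 and 1020 in Siglec-F int and 2189 and 1839 in Siglec-F high. The counts of members called were 17 higher and 1 lower in Siglec-F high under both, and 16 (TMM) or 17 (equal totals) higher and 1 lower in Siglec-F int.

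The count in Siglec-F int changed with the libraries included. It fell from 16 to 7 without naive library 1, to 10 without naive library 3, to 7 without Siglec-F int library 1 and to 6 without Siglec-F int library 3. In the same order, the calls over all genes in Siglec-F int fell from 3036 to 1939, 2055, 1497 and 1401. The count of members rose to 26 without Siglec-F high library 1, which enters this comparison through the shared estimate of the spread. That over all genes rose to 5167. In Siglec-F high the count of members stayed between 12 and 19 when any 1 library was left out. Without Siglec-F high 1 and Siglec-F int 2 together, 19 members were called in Siglec-F high and 20 in Siglec-F int.

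**Figure D1:**
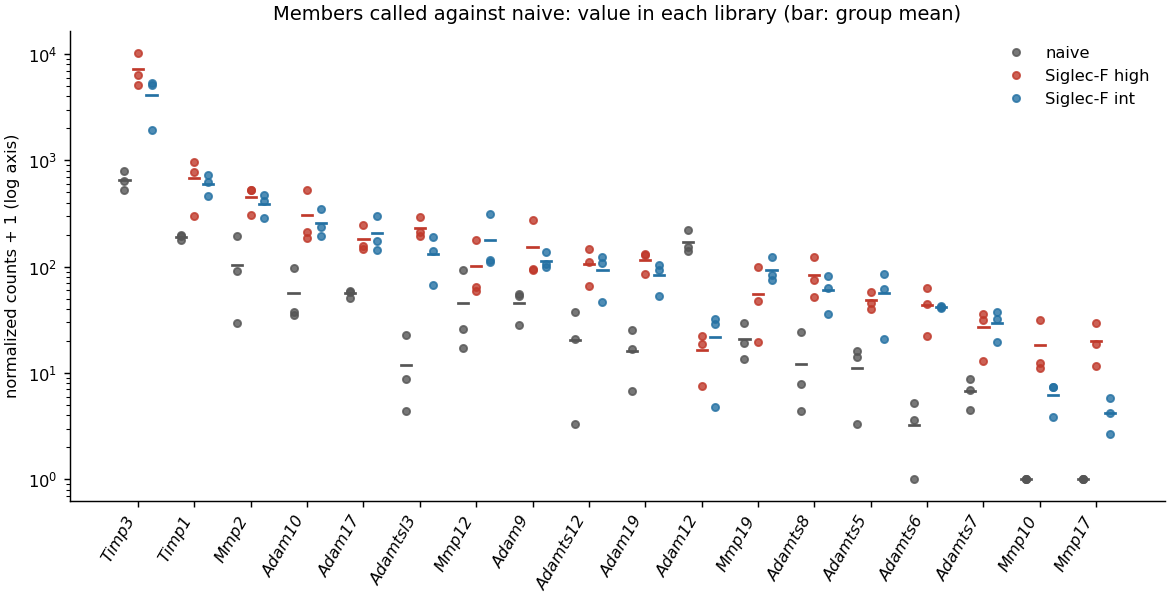
Normalized counts plus 1 (log axis) of the 18 members called in either comparison with naive, ordered by their mean. Each point is 1 library (3 per group) and each bar a group mean, and Adam12 is the member whose naive libraries lie above the others.

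**Figure D2:**
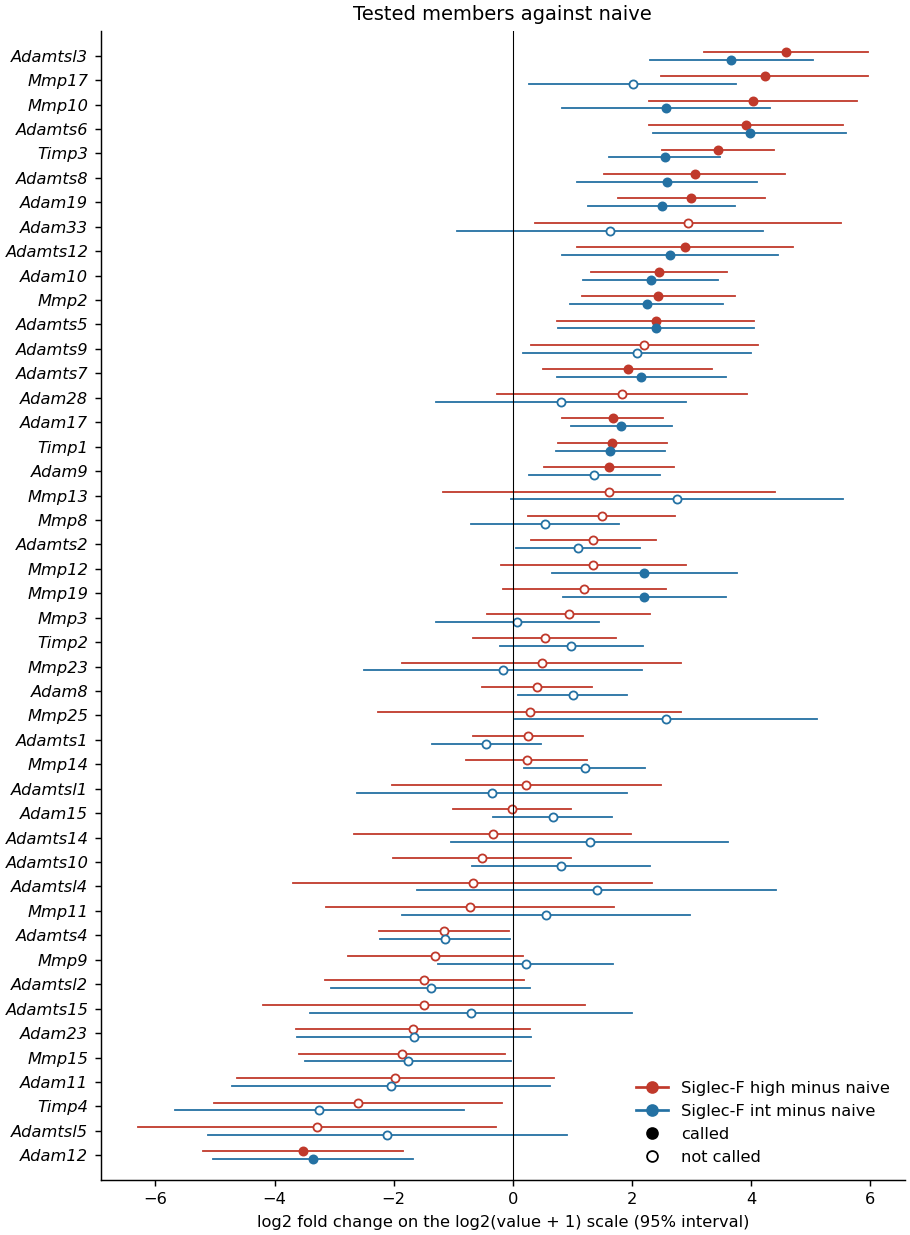
Fitted log2 fold change of the 46 tested members against naive on the log2(value + 1) scale, with 95% intervals from limma. Filled points passed the adjusted threshold, 16 in each comparison, and open points did not.

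Of the inhibitors that passed the test, Timp3 and Timp1, Timp3 had the larger change. It encodes the matrix-bound inhibitor of ADAM17, of ADAMTS aggrecanases and of many MMPs (chr10:86300372-86349506, plus strand). Its normalized counts were 521, 795 and 635 in naive, 10333, 5141 and 6421 in Siglec-F high and 5318, 1913 and 5160 in Siglec-F int. All 6 libraries from mice with tumour cells lay above all naive ones. Timp3 rose by 3.45 (SE 0.42) on the log2(value + 1) scale in Siglec-F high (limma, adjusted p = 0.000553) and by 2.55 (SE 0.42) in Siglec-F int (adjusted p = 0.00279). Timp3 kept its call in both comparisons under every other setting run, with log2 fold changes of 2.90 to 3.70 and of 2.19 to 3.03.

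Timp1, an inducible secreted inhibitor (chrX:20870166-20874735, plus strand), was at 197, 195 and 179 normalized counts in naive. Its values were 301, 974 and 768 in Siglec-F high and 730, 461 and 619 in Siglec-F int. The naive values were close together and below all others, and Siglec-F high library 1 was the lowest of its group. The log2 fold change was 1.67 (SE 0.41, limma adjusted p = 0.0138) in Siglec-F high and 1.63 (SE 0.41, adjusted p = 0.0187) in Siglec-F int. In Siglec-F int the call was lost when naive library 1 or 3 or Siglec-F int library 1 or 3 was left out, with log2 fold changes of 1.48 to 1.66.

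Timp2, which inhibits MMPs and also takes part in the activation of pro-MMP2 by MMP14, did not pass the test in either comparison. It was at 1000, 1042 and 1500 normalized counts in naive, 609, 2777 and 2797 in Siglec-F high and 3039, 1487 and 2640 in Siglec-F int. Siglec-F high library 1 was the lowest of all 9 libraries, while the other libraries of that group lay above every naive one. The log2 fold change was 0.53 (SE 0.54, limma adjusted p = 0.464) in Siglec-F high and 0.98 (SE 0.54, adjusted p = 0.2197) in Siglec-F int. Without Siglec-F high library 1 Timp2 was called higher in Siglec-F high (log2 fold change 1.26) and in Siglec-F int (0.98, as with all libraries). Timp4, the least widely expressed inhibitor, ran the other way. It was at 10.3, 26.1 and 28.4 in naive, 3.29, 8.35 and 0 in Siglec-F high and 6.98, 0 and 0.32 in Siglec-F int, from 84 reads in all. The naive libraries were the highest, but the log2 fold changes of -2.60 (SE 1.097, adjusted p = 0.0907) and -3.25 (SE 1.097, adjusted p = 0.0561) missed the threshold. Timp4 was called lower in Siglec-F high without Siglec-F high library 2 (-3.33), as it was in Siglec-F int without Siglec-F high library 1 or 3 (-3.25) or Siglec-F int library 1 (-4.18).

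**Figure D3:**
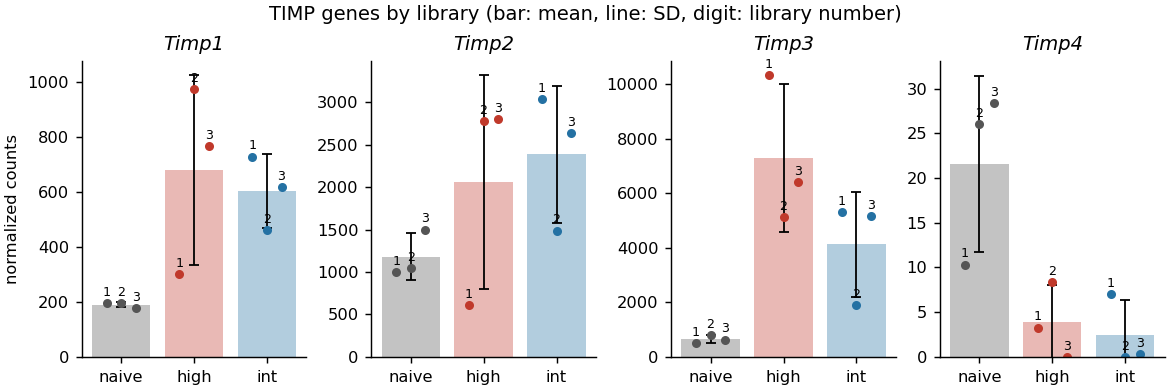
Normalized counts of the 4 TIMP genes in each library, with group means (bars) and SD (lines, n = 3), and digits giving the library number. Timp1 and Timp3 lie above naive in all 6 libraries from mice with tumour cells, Timp2 does so in all but Siglec-F high 1 and Siglec-F int 2, and Timp4 is highest in naive.

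The gelatinases, which cut denatured collagen and basement membrane collagen, differed from each other. Mmp2 (chr8:92827291-92853420, plus strand), the gelatinase made mainly by stromal cells, was at 90.6, 28.7 and 191 normalized counts in naive. It was at 304, 524 and 525 in Siglec-F high and 469, 288 and 411 in Siglec-F int. All naive libraries lay below the rest although these varied (104 ± 82.1, SD, n = 3). Mmp2 rose by 2.44 (SE 0.58) in Siglec-F high (limma, adjusted p = 0.0116) and by 2.25 (SE 0.58) in Siglec-F int (adjusted p = 0.0203). The second call was lost without naive library 1 (2.34) or without Siglec-F int library 1 or 3 (2.099 and 2.19). Mmp9 (chr2:164940780-164955850, plus strand), the gelatinase stored in neutrophil granules and made by macrophages, did not pass. It was at 61.9, 117 and 86.9 in naive, 10.97, 84.1 and 41.8 in Siglec-F high and 82.1, 155 and 77.5 in Siglec-F int, so that the groups overlapped. Its log2 fold change was -1.30 (SE 0.66, adjusted p = 0.150) in Siglec-F high and 0.21 (SE 0.66, adjusted p = 0.841) in Siglec-F int. Without Siglec-F high library 2 Mmp9 was called lower in Siglec-F high (-1.94). The sign in Siglec-F int turned without naive library 1 (-0.02) or Siglec-F int library 2 (-0.10).

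Of the collagenases, which cut fibrillar collagen, Mmp8 and Mmp13 were tested and neither passed, and Mmp1a and Mmp1b were at 0 reads. Mmp13 rested on 6 reads in naive, 30 in Siglec-F high and 114 in Siglec-F int. Its values were 0, 0 and 5.01 in naive, 18.7, 7.76 and 0 in Siglec-F high and 3.76, 29.5 and 11.7 in Siglec-F int. Its log2 fold changes were 1.61 (SE 1.26, limma adjusted p = 0.337) and 2.75 (SE 1.26, adjusted p = 0.141), with overlapping groups. For Mmp8, the neutrophil collagenase, the values ranged from 36.7 to 133 in naive, from 94.3 to 213 in Siglec-F high and from 67.1 to 116 in Siglec-F int. Mmp8 was called higher in Siglec-F high without naive library 2 (2.097) or Siglec-F high library 2 (1.87), beside 1.49 (adjusted p = 0.0648) with all libraries. With all libraries kept it was also called under TMM, equal totals and quantile scaling and by DESeq2, but not by edgeR.

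The stromelysins cut proteoglycans, fibronectin and laminin and can activate other pro-MMPs. Mmp10 (chr9:7502352-7510240, plus strand), named after its values were seen, had 0 reads in all naive libraries. Its normalized counts were 30.7, 11.3 and 10.2 in Siglec-F high (59 reads) and 6.44, 6.32 and 2.85 in Siglec-F int (36 reads). Against a floor of 3 reads over the naive group it was at least 12.8-fold higher in Siglec-F high and at least 3.98-fold higher in Siglec-F int. Both comparisons passed (limma, adjusted p = 0.00510 and 0.0404). Mmp10 reached the filter (mean 7.54 over all libraries) only through Siglec-F high (mean 17.4, beside 5.20 in Siglec-F int). Its call in Siglec-F high is therefore not independent of the filter. The Mmp10 call in Siglec-F int was lost without any 1 library except Siglec-F high library 1, with log2 fold changes of 2.41 to 2.88. Mmp3 did not pass. It was at 12.6, 49.5 and 24.2 in naive, 58.1, 66.2 and 29.9 in Siglec-F high and 34.4, 16.4 and 32.0 in Siglec-F int, and all groups overlapped. The log2 fold change of Mmp3 was 0.94 (SE 0.62, adjusted p = 0.257) in Siglec-F high and 0.08 (SE 0.62, adjusted p = 0.943) in Siglec-F int. The second turned to -0.39 without naive library 1, to -0.11 without Siglec-F int library 1 and to -0.06 without Siglec-F int library 3.

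Of the other secreted MMPs, Mmp12 and Mmp19 passed in Siglec-F int. Mmp12 (chr9:7344381-7369499, plus strand) encodes macrophage elastase. It was at 16.1, 91.2 and 25.1 normalized counts in naive, 177, 63.8 and 58.0 in Siglec-F high and 110, 311 and 115 in Siglec-F int. Siglec-F int lay above all naive libraries, library 2 being the highest of all 9, while Siglec-F high overlapped naive. The log2 fold change was 2.21 (SE 0.70, limma adjusted p = 0.0459) in Siglec-F int and 1.35 (SE 0.70, adjusted p = 0.158) in Siglec-F high. The call was lost without naive library 1 (1.70) or 3 (2.003), Siglec-F high library 3 (2.21) or Siglec-F int library 1 (2.46), 2 (1.72) or 3 (2.43).

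Mmp19 (chr10:128790910-128800824, plus strand), a secreted MMP of several stromal and myeloid cells, was at 12.6, 18.2 and 28.4 normalized counts in naive. It was at 18.7, 97.8 and 46.9 in Siglec-F high and 74.1, 121 and 81.9 in Siglec-F int. The Siglec-F int libraries were all above naive, and Siglec-F high library 1 was within the naive range. Mmp19 rose by 2.21 (SE 0.62, limma adjusted p = 0.0282) in Siglec-F int, and the difference in Siglec-F high was 1.20 (SE 0.62, adjusted p = 0.155). The call in Siglec-F int was lost without naive library 1 (1.94) or 2 (2.19) or Siglec-F int library 1 (2.35), 2 (1.998) or 3 (2.28). In Siglec-F high Mmp19 was called without Siglec-F high library 1 (1.80). Between Siglec-F high and Siglec-F int, the difference itself was -0.85 (SE 0.70) for Mmp12 and -1.01 (SE 0.62) for Mmp19, and neither passed.

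The membrane-type MMPs are anchored at the cell surface. Mmp14, the activator of pro-MMP2 and a pericellular collagenase (chr14:54431612-54445364, plus strand), was at 145, 146 and 81.9 normalized counts in naive and 77.9, 141 and 255 in Siglec-F high. It was at 291, 207 and 358 in Siglec-F int, above all naive libraries. The log2 fold change was 0.23 (SE 0.46, limma adjusted p = 0.716) in Siglec-F high and 1.21 (SE 0.46, adjusted p = 0.0847) in Siglec-F int. Mmp14 was called in Siglec-F int by edgeR (1.42) and DESeq2 (1.30). Without Siglec-F high library 1 it was called there at the same 1.21, and the value in Siglec-F high turned to -0.04 without naive library 3 and to -0.19 without Siglec-F high library 3.

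Mmp17 (chr5:129584169-129611099, plus strand), a membrane-type MMP held by a lipid anchor, was chosen for naming after its values were seen. It had 0 reads in naive. Its normalized counts were 28.5, 10.7 and 17.9 in Siglec-F high (65 reads) and 4.83, 1.69 and 3.16 in Siglec-F int (23 reads), and the 3 groups did not overlap. It was at least 14.1-fold higher in Siglec-F high and at least 2.54-fold higher in Siglec-F int than 3 reads over the naive group would give. The first passed (limma, adjusted p = 0.00398) and the second did not (adjusted p = 0.0911), although it was called without Siglec-F high library 1 (log2 fold change 2.01). Mmp17 reached the filter (mean 7.43 over all libraries) only through Siglec-F high (mean 19.1, beside 3.23 in Siglec-F int). The call in that group is therefore not independent of the filter. Mmp15 and Mmp25, the other tested membrane-type genes, stayed under 30 normalized counts in every library and did not pass. Mmp15 was called lower in Siglec-F high without Siglec-F high library 2 (-2.42), as it was in Siglec-F int without Siglec-F high library 1 (-1.77), and without the latter Mmp25 was called higher in Siglec-F int (2.57).

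Among the ADAMTS hyalectanases, which cut aggrecan and versican, Adamts8 and Adamts5 passed in both comparisons out of 6 tested. Adamts8 (chr9:30942562-30963838, plus strand) was at 6.88, 23.5 and 3.34 normalized counts in naive, 122, 51.3 and 73.4 in Siglec-F high and 80.0, 34.97 and 61.4 in Siglec-F int. The log2 fold changes were 3.05 (SE 0.69, limma adjusted p = 0.00937) and 2.59 (SE 0.69, adjusted p = 0.0227), with no overlap with naive. In Siglec-F int the Adamts8 call was lost without naive library 1 (2.46) or 3 (2.03) or Siglec-F int library 1 (2.33) or 3 (2.52). Adamts5, the main aggrecanase of mouse cartilage (chr16:85856173-85901828, minus strand), was at 2.29, 13.03 and 15.03 in naive, 44.97, 57.3 and 39.2 in Siglec-F high and 84.3, 19.8 and 61.1 in Siglec-F int. All naive values were lower than the rest, with 25 naive reads in all. The log2 fold changes of Adamts5 were 2.40 (SE 0.75, adjusted p = 0.0337) and 2.41 (SE 0.75, adjusted p = 0.0416). The Adamts5 call in Siglec-F high was lost without naive library 1 (1.67), Siglec-F high library 1 (2.42), 2 (2.25) or 3 (2.52) or Siglec-F int library 3 (2.40). In Siglec-F int it was lost without naive library 1 (1.68) or 2 (2.72), Siglec-F high library 3 (2.41) or Siglec-F int library 1 (1.99) or 3 (2.22).

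Adamts1, an aggrecanase and versicanase induced by inflammation and best known from ovulation (chr16:85793827-85803113, minus strand), lies beside Adamts5 on the chromosome and did not pass. It was at 225, 180 and 308 normalized counts in naive, 354, 194 and 308 in Siglec-F high and 200, 98.2 and 251 in Siglec-F int, with overlap throughout. Differences from naive were 0.25 (SE 0.42, limma adjusted p = 0.658) and -0.44 (SE 0.42, adjusted p = 0.469). Adamts4, Adamts9 and Adamts15, the remaining tested hyalectanases, did not pass, with log2 fold changes of -1.49 to 2.21 in Siglec-F high and -1.14 to 2.08 in Siglec-F int. Adamts9 was called higher in Siglec-F high without naive library 2 (2.96).

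Adamts2, which removes the amino-terminal propeptide of procollagens, was at 80.3, 107 and 37.6 normalized counts in naive, 134, 261 and 159 in Siglec-F high and 174, 97.7 and 188 in Siglec-F int. Siglec-F high lay above naive without overlap, and Siglec-F int library 2 was within the naive range. Its log2 fold changes were 1.35 (SE 0.47, limma adjusted p = 0.0506) and 1.09 (SE 0.47, adjusted p = 0.121), so neither passed. Adamts2 was called in Siglec-F high without naive library 2 (1.67) or Siglec-F high library 1 (1.55), and also by edgeR and DESeq2. Adamts14, of the same class, was called in Siglec-F int without Siglec-F high library 1 (1.29).

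Of the other ADAMTS genes, Adamts12, Adamts6 and Adamts7 passed in both comparisons out of 4 tested. Adamts12, a protease of cartilage oligomeric matrix protein (chr15:11064790-11349231, plus strand), was at 2.29, 36.5 and 20.1 normalized counts in naive, 64.7, 109 and 145 in Siglec-F high and 123, 45.5 and 107 in Siglec-F int. The log2 fold changes were 2.89 (SE 0.82, limma adjusted p = 0.0242) and 2.64 (SE 0.82, adjusted p = 0.0426), and naive did not overlap the other groups. In Siglec-F high the Adamts12 call was lost without naive library 1 (1.86) or Siglec-F high library 3 (2.63). In Siglec-F int it was lost without naive library 1 (1.61) or 3 (2.94), Siglec-F high library 3 (2.64) or Siglec-F int library 1 (2.37), 2 (3.08) or 3 (2.47). Adamts6 and Adamts7 were called at means under 50 and are named after their values were seen. Adamts6 was at 0, 2.61 and 4.18 in naive, 43.9, 21.5 and 62.3 in Siglec-F high and 41.9, 40.0 and 40.5 in Siglec-F int. Adamts6 thus had 6 reads in naive and no overlap, and its log2 fold changes were 3.91 (SE 0.74, adjusted p = 0.00416) and 3.98 (SE 0.74, adjusted p = 0.00460). Adamts7 ranged from 3.44 to 7.82 in naive, 12.1 to 34.6 in Siglec-F high and 18.5 to 36.7 in Siglec-F int (log2 fold changes 1.93 and 2.15, adjusted p = 0.0432 and 0.0362). The Adamts7 call in Siglec-F high was lost without any 1 library except Siglec-F high library 1, with log2 fold changes of 1.66 to 2.15. In Siglec-F int it was lost without naive library 1 or 3, Siglec-F high library 3 or any Siglec-F int library, with 1.89 to 2.43.

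Adamtsl3 (chr7:82335694-82614450, plus strand), a matrix protein related to ADAMTS proteases with no protease of its own, was higher in both comparisons. It was at 21.8, 7.82 and 3.34 normalized counts in naive, 194, 209 and 290 in Siglec-F high and 140, 66.6 and 187 in Siglec-F int. The 3 groups did not overlap, and Siglec-F high was above Siglec-F int in every library. The log2 fold changes were 4.58 (SE 0.62, limma adjusted p = 0.000870) and 3.67 (SE 0.62, adjusted p = 0.00306), and both calls held under every other setting run. The other 4 ADAMTS-like genes did not pass in either comparison with all libraries included. Adamtsl4 was at 0 in Siglec-F high library 1 and at 83.5 and 70.8 in the others of its group, beside 18.2 to 39.0 in naive. With all libraries Adamtsl4 differed by -0.67 on the log2 scale in Siglec-F high (SE 1.37, limma adjusted p = 0.724). Without that library it was called higher in both comparisons (1.42 and 1.41). Adamtsl5 was called lower in Siglec-F high without Siglec-F high library 2 (-4.32), as it was in Siglec-F int without Siglec-F high library 1 (-2.11).

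The proteolytic ADAMs release membrane proteins, and 4 of the 9 tested were higher and 1 lower in Siglec-F high, while 3 were higher and 1 lower in Siglec-F int. Adam10, the sheddase of Notch and CD23 (chr9:70678997-70780229, plus strand), was at 34.4, 36.5 and 95.2 normalized counts in naive. It was at 521, 187 and 212 in Siglec-F high and 192, 345 and 234 in Siglec-F int, with Siglec-F high library 1 well above the rest. Adam10 rose by 2.45 (SE 0.51, limma adjusted p = 0.00697) in Siglec-F high and by 2.31 (SE 0.51, adjusted p = 0.0105) in Siglec-F int, and both calls held under every other setting. Adam17, the sheddase of tumour necrosis factor and of epidermal growth factor receptor ligands (chr12:21323509-21373632, minus strand), was at 58.5, 49.5 and 56.8 in naive. It was at 246, 147 and 155 in Siglec-F high and 144, 300 and 174 in Siglec-F int, all above the narrow naive range. Adam17 rose by 1.68 (SE 0.38, adjusted p = 0.00997) and 1.82 (SE 0.38, adjusted p = 0.00832). The call in Siglec-F high was lost when the trends with transcript length and GC content were taken out, which brought Adam17 to 0.93.

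Adam19, a sheddase of neuregulins with a role in heart development (chr11:46055992-46147343, plus strand), was at 5.73, 15.6 and 24.2 normalized counts in naive, 84.5, 126 and 131 in Siglec-F high and 103, 51.4 and 93.0 in Siglec-F int. On the log2 scale Adam19 rose by 3.00 (SE 0.56, limma adjusted p = 0.00401) in Siglec-F high and by 2.50 (SE 0.56, adjusted p = 0.0109), without overlap with naive. The second Adam19 call was lost without Siglec-F int library 1 (2.31) or 3 (2.38). Adam9 (chr8:24949611-25016927, minus strand), a widely expressed sheddase, was at 27.5, 54.7 and 51.8 in naive, 271, 93.1 and 93.0 in Siglec-F high and 99.3, 136 and 104 in Siglec-F int. All libraries from mice with tumour cells were above naive, and Siglec-F high library 1 was by far the highest. Adam9 passed in Siglec-F high (1.61, SE 0.50, adjusted p = 0.0318) and not in Siglec-F int (1.37, SE 0.50, adjusted p = 0.0707), and the difference between them was 0.24 (SE 0.50), which did not pass. The Adam9 call was lost without naive library 1 (1.30) or 3 (1.75), Siglec-F high library 1 (1.103) or Siglec-F int library 1 or 3 (1.61). In Siglec-F int, Adam9 was called without Siglec-F high library 1 (1.37), and also by edgeR (1.55) and DESeq2 (1.45).

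Adam12, a protease of growing muscle, bone and activated stroma (chr7:133883199-134232146, minus strand), was the only tested member called lower in either comparison with all libraries included. It was at 219, 141 and 153 normalized counts in naive, 6.58, 17.9 and 21.3 in Siglec-F high and 27.9, 3.79 and 31.0 in Siglec-F int. Every naive library lay more than 4 times above every other library. Adam12 fell by 3.52 (SE 0.76, limma adjusted p = 0.00798) in Siglec-F high and by 3.36 (SE 0.76, adjusted p = 0.0114) in Siglec-F int, and both calls held under every other setting. The remaining proteolytic ADAMs (Adam8, Adam15, Adam28 and Adam33) did not pass. Adam8, a sheddase of leukocytes, was at 88.3, 107 and 104 in naive, 159, 122 and 119 in Siglec-F high and 134, 379 and 157 in Siglec-F int, so that neither group overlapped naive. In Siglec-F int the log2 fold change of Adam8 was 1.00 (SE 0.42, adjusted p = 0.107), and it was called there by edgeR (1.37) and DESeq2 (1.26) and with equal totals (1.27). Adam33 had 2 reads in naive, 50 in Siglec-F high and 58 in Siglec-F int. The ratio to naive of reads pooled by group and scaled for depth was 16.3 (95% counting interval 4.29 to 138) and 9.62 (2.55 to 81.3). These intervals leave out the spread between pools. By limma neither comparison passed (log2 fold changes 2.94 and 1.63, adjusted p = 0.0755 and 0.337), and Siglec-F int overlapped naive. Adam33 was called in Siglec-F high without naive library 2 (3.82).

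Adam23, a non-proteolytic ADAM that binds integrins and LGI proteins in brain, was at 22.9, 20.8 and 33.4 normalized counts in naive. It was at 2.19, 19.1 and 7.68 in Siglec-F high and 17.7, 9.69 and 1.90 in Siglec-F int, below naive in all 6 libraries. Its log2 fold changes of -1.67 (SE 0.89, limma adjusted p = 0.166) and -1.65 (SE 0.89, adjusted p = 0.205) did not pass.

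The 38 members that were not tested had little or no RNA. There were 17 at 0 in every library and 21 with 1 to 46 reads in all. The ADAMs of testis and epididymis, which act in sperm maturation and fertilization, form most of a class of 21 genes, of which 12 were at 0 reads and none had more than 23. The highest mean of that class was that of Adam3, at 1.88 normalized counts, which came mostly from naive library 2 (15.6). One untested gene, Adamts13, which cleaves von Willebrand factor, lay just under the filter with a mean of 4.94 and is named because its groups separate. It was at 14.9, 15.6 and 11.7 in naive, 0, 0 and 0.85 in Siglec-F high and 0, 0.42 and 0.95 in Siglec-F int. The ratio of naive to Siglec-F high, from 33 reads and 1 read, was 50.6 (95% counting interval 8.47 to 2058). With the filter lowered to a mean of 1, limma called Adamts13 lower in both comparisons.

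No member was called between Siglec-F high and Siglec-F int by limma (0 of 46, with 2 under an unadjusted p of 0.05 and a smallest adjusted p of 0.797). edgeR and DESeq2 on the recovered reads also called 0 members, each with 1 under an unadjusted p of 0.05. Over all genes limma called 0 (0% of those tested, with 591 under 0.05), edgeR 0 (636) and DESeq2 6 (909). The libraries did not overlap for 3 members, Adamtsl3, Mmp10 and Mmp17, all higher in Siglec-F high, which is 6.52% of the members tested beside 5.52% of all genes. None was lower without overlap, beside 5.75% of all genes. The largest of these differences was that of Mmp17 (log2 fold change 2.22, 95% interval 0.48 to 3.95). Mmp10 and Mmp17 had reached the filter on low values only through Siglec-F high. For Mmp9 the difference was -1.52 (-2.98 to -0.05), for Timp3 0.90 (-0.03 to 1.83) and for Mmp14 -0.97 (-1.99 to 0.04), all with an adjusted p of 0.797. The 95% intervals of the 46 members had a median half-width of 1.59 on the log2 scale.

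The Siglec-F high libraries differed from each other in many members, and the differences ran with base composition. Relative to the other libraries of its group, library 1 was more than 2-fold higher for 8 members and more than 2-fold lower for 16. Its deviation ran against transcript GC content, with r = -0.49 across the 46 tested members and r = -0.47 across 13639 genes, as a description across genes of 1 library. Library 2 ran the other way (r = 0.50 and 0.51), with 15 members more than 2-fold higher and 6 lower. For library 3 the values were 0.30 and 0.21. Each library was set against the mean of the others of its group, so these correlations are not independent of each other. In library 1 the members furthest below were GC-rich: Adamtsl4 (GC 60.1%) was at 0, and Adamts14 (59.5%) was at 1.1 beside 48.9 and 48.6. Those above included Adam10 (42.1%) and Adam9 (46.6%), but also Adam33 (58.2%) and Adamts8 (57.4%). Without this library the fold change in Siglec-F high turned sign for 6 more members, none of which passed: Adamts14 (from -0.34 to 1.18), Adamts15 (-1.49 to 0.31), Adamts10 (-0.52 to 0.18), Mmp11 (-0.72 to 0.72), Adam15 (-0.01 to 0.29) and Mmp25 (0.28 to -0.83). When each library's trends with length and GC content were taken out, an analysis added after seeing the data, 14 members were called in Siglec-F high and 18 in Siglec-F int. The calls of Adam17, Adam9, Adamts12 and Adamts5 were lost in Siglec-F high (log2 fold changes 0.93, 1.21, 1.95 and 0.93), while Adam33 (4.13) and Adamts2 (1.61) were called higher. In Siglec-F int those of Adamts12, Adamts5 and Mmp12 were lost (1.96, 1.33 and 1.22), while Timp2 (1.45), Mmp14 (1.74), Adam8 (1.53) and Adam15 (1.26) were called higher and Timp4 (-3.63) lower.

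**Figure D4:**
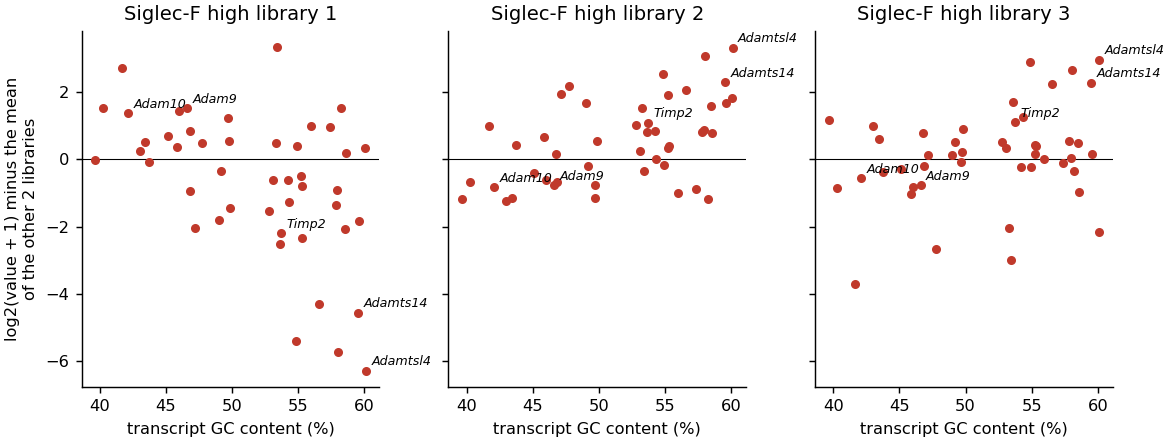
Deviation of each Siglec-F high library from the mean of the other libraries of its group, as log2(value + 1), against transcript GC content (%) for the 46 tested members, 1 point per gene. Adamtsl4 and Adamts14, of high GC content, lie below the line at 0 in library 1 and above it in library 2, while Adam33, Adamts8 and Mmp17 lie the other way.

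Markers of other cell types moved between the same groups, and their part in the results above was not tested. The 14 fibroblast and smooth muscle markers summed to 7156 to 8804 normalized counts in naive, 26032 to 38464 in Siglec-F high and 11045 to 27106 in Siglec-F int. Of these, 7 of 14 were called higher in Siglec-F high and 5 of 14 in Siglec-F int, and none was at 0 in a whole group. Over all genes 14.7% and 12.0% were called higher. The median log2 fold change of the 14 was 1.21 and 0.58. In Siglec-F int 6 of the 14 lay above naive without overlap and 3 below, beside 23.3% and 27.6% of all genes, so the list did not rise as a whole there. Siglec-F high library 1 had both the highest sum (38464) and the highest Timp3 (10333), and Siglec-F int library 2 had the lowest of both among the libraries from mice with tumour cells (11045 and 1913). The 14 monocyte and interstitial macrophage markers summed to 16235 to 21541 in naive, 20284 to 38309 in Siglec-F high and 34761 to 124787 in Siglec-F int, and 7 and 8 of the 14 were called higher. Their highest sum was in Siglec-F int library 2, where Mmp12 (311), Adam17 (300) and Adam10 (345) were the highest of their group. In Siglec-F high, by contrast, library 1 had the lowest of these sums (20284, beside 38309 and 30788) and the highest Mmp12 (177), Adam17 (246) and Adam10 (521). The 10 tested neutrophil markers had 0 called higher and 1 lower in each comparison (sums 3541 to 4703, 2823 to 4996 and 1483 to 2679). Of the 15 pigment cell markers 13 were called lower in both comparisons, as was Adam12. In such bulk libraries fewer cells of a type and less RNA per cell cannot be told apart.

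**Figure D5:**
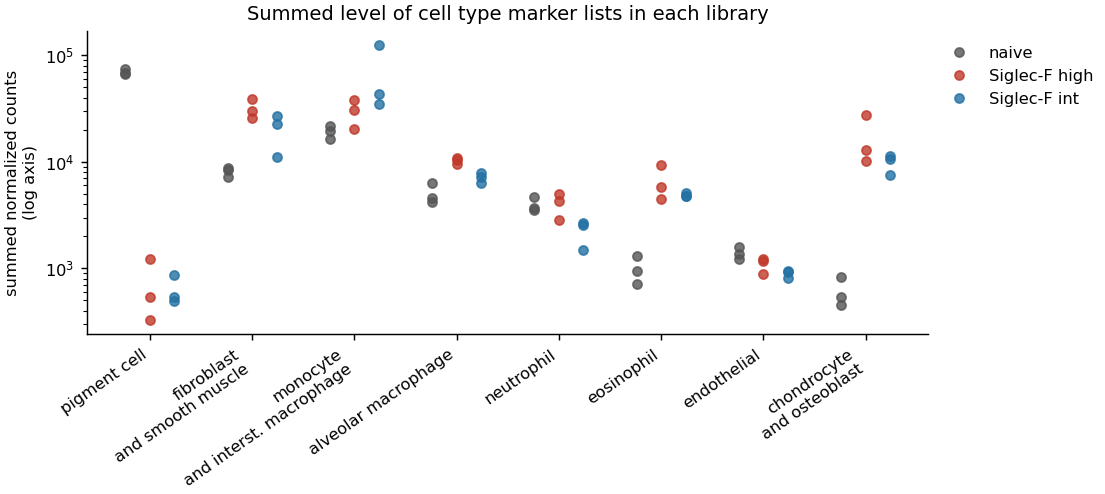
Summed normalized counts (log axis) of cell type marker lists, 1 point per library and 3 libraries per group. The pigment cell list is highest in naive (66316 to 74630), and the fibroblast and smooth muscle list lies above naive in all 6 libraries from mice with tumour cells.

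Genes that act with these proteases were also followed. Among 25 tested regulators and partners, such as plasminogen activators, serpins, scavenging receptors and procollagen enhancers, 9 were higher and 1 lower in Siglec-F high, and 4 were higher and 1 lower in Siglec-F int. Of all genes, 14.7% were called higher and 16.6% lower in Siglec-F high, and 12.0% and 10.3% in Siglec-F int, so that the count in Siglec-F int was near the background. Lrp1, the endocytic receptor that clears several MMPs and TIMPs, went from 103 ± 36.1 normalized counts (SD, n = 3) in naive to 482 ± 183 in Siglec-F high and 574 ± 128 in Siglec-F int (log2 fold changes 2.21 and 2.50, limma adjusted p = 0.00274 and 0.00196). Plat, the tissue plasminogen activator, went from 40.4 ± 11.1 to 229 ± 92.1 and 133 ± 29.9 (adjusted p = 0.00225 and 0.0142).

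Of 24 tested matrix substrates, 13 were higher in Siglec-F high, 10 in Siglec-F int and 0 lower in either by limma. Of all genes, 14.7% were called higher and 16.6% lower in Siglec-F high, and 12.0% and 10.3% in Siglec-F int. The median log2 fold changes of the matrix substrates were 1.74 and 1.36, beside -0.11 and -0.02 for all genes. Col1a1, Col1a2, Col3a1, Dcn and Lum were also among the fibroblast and smooth muscle markers, so these lists are not separate observations. Fibronectin (Fn1) went from 965 ± 65.8 (SD, n = 3) to 10475 ± 1698 and 7735 ± 1465 normalized counts (adjusted p = 9.8e-05 and 0.000176). Of 26 tested surface proteins that ADAM10 or ADAM17 shed, 14 were higher in Siglec-F high, 15 in Siglec-F int and 0 lower. The same shares of all genes apply here, 14.7% and 12.0% higher and 16.6% and 10.3% lower. Csf1r of this list was also among the monocyte and interstitial macrophage markers. Vcam1, an adhesion molecule cut by ADAM17, rose from 40.2 ± 10.1 to 651 ± 258 and 411 ± 140 (adjusted p = 0.000282 and 0.000748), and the growth factor Areg rose from 9.80 ± 8.55 to 283 ± 112 and 225 ± 22.8 (adjusted p = 0.000855 and 0.00143).

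Genes that overlap a member on the other strand can share reads with it, since the sources do not say whether strand was used in counting. Among called members, the opposite-strand partners with more than 1.07 normalized counts in any library were Syn1 (of Timp1), Syn3 (of Timp3), Iah1 (of Adam17), Tmem198b (of Mmp19) and Tbc1d2b (of Adamts7). Syn1 was at 28.7, 13.03 and 4.18 in naive, 70.2, 66.8 and 23.03 in Siglec-F high and 45.1, 26.96 and 22.8 in Siglec-F int, and thus mostly above naive, as Timp1 was. Syn3 did not exceed 29.0 normalized counts in any library, far below Timp3. Iah1 moved against Adam17, at 305 to 344 in naive and 24.1 to 150 in the other libraries. Tmem198b was at 14.2 to 33.9 in naive and 9.87 to 39.2 in the others, and Tbc1d2b at 44.3 to 66.8 and 24.1 to 79.4, so that the ranges overlapped for both.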

How the data were processed

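The 9 libraries, 3 per group, pooled cells of 3 to 4 mice each, sorted to a purity above 98% with an RNA integrity number above 6.3, per the labels' protocols. TopHat2 2.1.0, HTSeq, DESeq2 1.10.0 and GRCm38 are named in the submitters' processing notes. Each deposited signal value is a gene's read count over its library's size factor, a scaling done by the authors. Values up to 2000 reads were whole multiples of the smallest step (100%, tolerance 0.05 read), which gave the depth. Intervals and floors cover counting error only, since molecular identifiers are not stated.

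Of 54670 entries, 63 named by a date (0.219% of the total), 116 exact duplicates and 42 entries with a repeated name and values were left out. Gene positions and GC content came from GENCODE M21 and promoters from RefSeq. limma 3.58.1 (R 4.3.3) was fitted to log2(value + 1) of all 9 libraries at once, with a variance trend, two-sided tests and Benjamini-Hochberg adjustment over 13642 genes at 0.05. Fold changes on this scale understate those of low genes. The p-values measure the spread between pools.

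Alternatives were pseudocounts 0.5 and 5, filters, 3 scalings, variance priors, a fold minimum of 2, only the groups compared, a replicate block, each library left out, 2 libraries left out together, and edgeR 4.0.16 and DESeq2 1.42.0 on recovered reads. Removal of the GC and length trend (span 0.3) was added after seeing the data. Same-numbered libraries correlated at -0.03 to 0.14. Between Siglec-F high and Siglec-F int these values were 0.12, 0.14 and 0.07, beside -0.16 to -0.01 for differently numbered libraries. Whether the numbers pair these groups was not settled, and the main fit did not use them. No library repeated another (chi-square per degree of freedom 16.6 to 148 within groups).

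Members and gene lists were chosen with earlier results of these data known. Values are given per library for called members whose higher group averaged 50 or more, for a fixed set of members, and for the top member of a class without either. The limma procedure was also run on simulated data, and no result given here rests on that run. Protein sequences were not used here.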

Additional observations from a re-analysis of the deposited data

How the results depend on the processing

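The 16 members called in each comparison with naive kept their direction under every alternative in which they were tested, and 11 (Siglec-F high) and 6 (Siglec-F int) also kept their call, except that Mmp10 and Mmp17 were not tested with the filter at a mean of 20. Leaving out 1 library gave 12 to 19 members called in Siglec-F high and 6 to 26 in Siglec-F int, and 2770 to 5101 and 1401 to 5167 of all genes, beside 4266 and 3036. Fitting only the libraries compared gave 2509 and 4808 genes, and leaving out Siglec-F high 1 and Siglec-F int 2 together gave 4623 genes in Siglec-F int. DESeq2 called 6 genes between Siglec-F high and Siglec-F int, where limma called 0. The cause of these shifts was not tested, apart from the fewer libraries in those fits.

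Reversals concerned members that did not pass. Leaving out 1 library gave log2 fold changes of -0.10 to 0.44 for Mmp9 and -0.39 to 0.56 for Mmp3 in Siglec-F int, and of -0.19 to 0.66 for Mmp14 in Siglec-F high. Without both libraries named above Mmp9 was at -0.10. With the replicate block, 15 members were called in Siglec-F high and 14 in Siglec-F int, with 4317 and 3091 of all genes and 0 between Siglec-F high and Siglec-F int. By the correlations given above, a pairing of Siglec-F high with Siglec-F int was not settled. Depth limits the members with few reads, such as Mmp10, Mmp17 and Timp4 in naive.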

Other observations

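The transcription factors known to act on metalloproteinase genes and the metalloproteinases of other families were measured in the same libraries. Of 25 tested transcription factor genes, 10 were higher and 1 lower in Siglec-F high, and 11 were higher and 1 lower in Siglec-F int, by limma against naive. Of all genes, 14.7% were higher and 16.6% lower in Siglec-F high, and 12.0% and 10.3% in Siglec-F int. Sox9, a chondrogenic factor, went from 215 ± 38.1 normalized counts (SD, n = 3) to 4164 ± 1215 in Siglec-F high and 3042 ± 1256 in Siglec-F int (adjusted p = 0.000149 and 0.000415). Runx2, a factor of bone formation, went from 4.59 ± 5.04 to 172 ± 68.2 and 165 ± 63.2 (adjusted p = 0.000666 and 0.000943). Summed over the list, the level was 13893 to 15784 in naive, 35409 to 42393 in Siglec-F high and 30469 to 38706 in Siglec-F int.

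Of 18 tested astacin and other metalloproteinases, 4 were higher and 0 lower in each comparison, beside 14.7% and 12.0% of all genes higher. Mme, the peptidase neprilysin, went from 8.35 ± 6.33 to 347 ± 89.7 and 226 ± 115 normalized counts (SD, n = 3, limma adjusted p = 0.000705 and 0.00177). Phex, an endopeptidase of bone cells, was at 0 in all naive libraries and at 23.3 ± 7.83 and 11.2 ± 5.45 in the other groups (adjusted p = 0.00186 and 0.00747). The 14 chondrocyte and osteoblast markers, of which 6 were tested, summed to 454 to 836 in naive, 10130 to 27704 in Siglec-F high and 7576 to 11295 in Siglec-F int. This list includes Sox9 and Runx2, named above. Of the 6, 3 were called higher and 1 lower in Siglec-F high, and 4 higher and 0 lower in Siglec-F int. Acan, Sp7, Bglap, Matn1 and Chad were at 0 in all Siglec-F high libraries, and Col9a1, Sp7 and Bglap in all Siglec-F int libraries.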
